A study of Homo sapiens with 12 samples.

Results

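The enzymes of amino acid metabolism described here, 7 genes of the 60663 in the count table, were followed in RCC4 cells: HGD and FAH of tyrosine degradation, KYNU and ACMSD of tryptophan degradation, BHMT and BHMT2 of betaine and homocysteine metabolism, and GATM. They were chosen by name as enzymes of the proximal tubule and matched to the Ensembl identifiers of the table; results of these data, their counts and their responses alike, were known when they were chosen, so their values are a description. GATM goes against that heading, since it makes guanidinoacetate from arginine and glycine for creatine synthesis and degrades no amino acid to fuel. RCC4 is a clear cell renal carcinoma line that has lost VHL, the tumour suppressor that targets hypoxia-inducible factors for degradation. The 4 groups were VHL- cells with 5 µM JQ1, VHL- cells with DMSO, VHL+ cells with 5 µM JQ1 and VHL+ cells with DMSO, with 3 libraries each. VHL+ cells are the same line with VHL put back. JQ1 is an inhibitor of BET bromodomain proteins, described in the labels as acting against MYC, and DMSO is its solvent. Both lines were grown with geneticin in the medium. The VHL construct, whether either line is 1 clone, the time of treatment and the origin of the replicates as separate cultures are not given, so p-values may measure technical spread, and VHL itself and other differences between the 2 cultures cannot be told apart.

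The proximal tubule and the liver share much of their amino acid chemistry. In tyrosine degradation, TAT and HPD make homogentisate, HGD opens its ring, GSTZ1 isomerizes the product and FAH makes the final cut to fumarate and acetoacetate. In the kynurenine pathway, TDO2 or IDO1 opens the tryptophan ring, KMO and KYNU process kynurenine, HAAO makes an unstable semialdehyde, and ACMSD diverts that semialdehyde away from quinolinate and NAD. BHMT moves a methyl group of betaine to homocysteine and so regenerates methionine, while its paralog BHMT2 takes the methyl group from S-methylmethionine.

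RNA was sequenced after removal of ribosomal RNA, and libraries held 15452949 to 32502310 counts. Levels are counts relative to TMM-scaled library sizes (CPM), given as mean ± SD over 3 libraries per group. Differences are log2 fold changes with their standard error (SE) from edgeR's quasi-likelihood test, and a gene is called at a Benjamini-Hochberg adjusted p under 0.05 over the 20714 genes tested. VHL RNA was at 32.7 ± 2.39 CPM in VHL- cells with JQ1, 26.4 ± 1.64 CPM in VHL- cells with DMSO, 212 ± 14 CPM in VHL+ cells with JQ1 and 70.3 ± 7.62 CPM in VHL+ cells with DMSO. CA9, a target of hypoxia-inducible factors, was at 83.5 ± 12.3 CPM in VHL- cells and 0.126 ± 0.0216 CPM in VHL+ cells under DMSO. The kidney lineage factor PAX8 was expressed in all groups, at group means of 274 to 626 CPM. Of 26 proximal tubule markers, 10 passed the filter on low counts, while LRP2, the megalin receptor, had 24 counts over the 12 libraries. Endothelial, leukocyte and hepatocyte lists had 1 tested gene each, ESAM, CSF1R and SERPINA1, and albumin had 9 counts in all. The summed level of these lists was at most 10.1 CPM (endothelial), 4.36 CPM (leukocyte) and 7.25 CPM (hepatocyte) in any library. MYC was at 160 ± 28.9 CPM with JQ1 and 342 ± 84.4 CPM with DMSO in VHL- cells (log2 -1.10, adjusted p = 0.000869). In VHL+ cells it was at 161 ± 18.9 CPM with JQ1 and 171 ± 48.0 CPM with DMSO, which was not called (log2 -0.08, adjusted p = 0.795). The difference between these JQ1 effects, -1.01, was not called either (adjusted p = 0.0852).

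Of the 7 enzymes, 5 (HGD, FAH, ACMSD, BHMT2 and GATM) were detected in all 12 libraries at or above 0.370 CPM, the level of the filter, which was applied before TMM scaling. KYNU reached that level in 4 libraries, all 3 of VHL- cells with DMSO and 1 of VHL+ cells with DMSO, and entered the tests through the first of these groups. A gene that enters in that way had to be high there, so its differences from that group carry no weight of their own. BHMT reached the level in 1 library, had 40 counts in all and at most 10 in a library, and was not tested. In these libraries 3 counts correspond to 0.0888 to 0.179 CPM, which is the depth limit for KYNU and BHMT. Per kilobase of exon, BHMT2 was the most abundant of the 7 in VHL+ cells, at 34.5 ± 1.70 CPM per kb with JQ1 and 45.7 ± 1.98 CPM per kb with DMSO. In VHL- cells with DMSO, HGD had the highest value at 8.42 ± 0.803 CPM per kb. FAH followed at 6.22 ± 0.737 and BHMT2 at 4.42 ± 0.297 CPM per kb. The length used is that of all annotated exons merged, 2983 bases for HGD and 7203 for FAH, and not of the transcript in use. The order of these 2 rests on it, since in CPM FAH stood above HGD there, at 44.8 ± 5.31 against 25.1 ± 2.40. GATM led in VHL- cells with JQ1, at 3.05 ± 0.637 CPM per kb, with FAH next at 2.35 ± 0.260 CPM per kb.

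**Figure D1:**
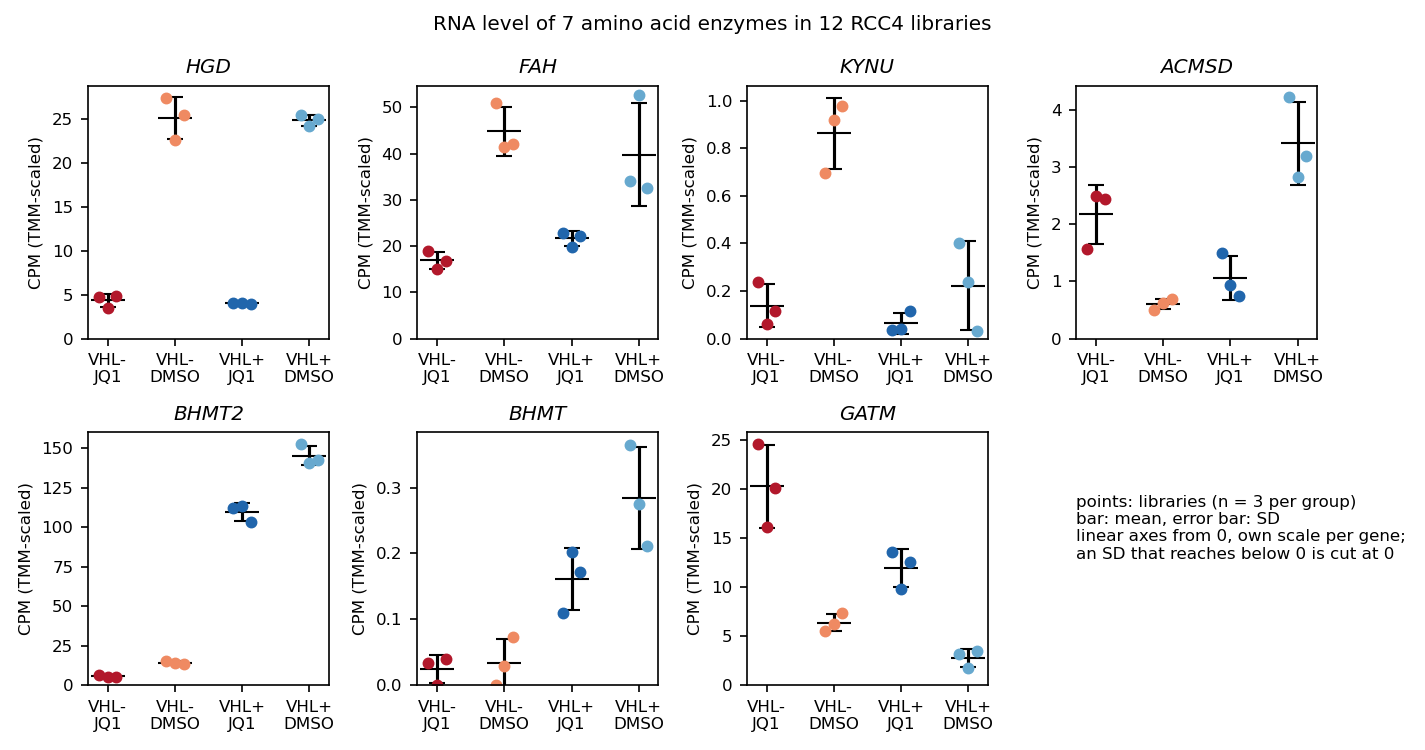
RNA levels (CPM, TMM-scaled, linear axes from 0) of the 7 enzymes in every library, in VHL- cells with JQ1, VHL- cells with DMSO, VHL+ cells with JQ1 and VHL+ cells with DMSO; points are libraries, bars are means and error bars SD (n = 3). HGD and FAH sit lower with JQ1 in both lines, GATM sits higher with JQ1 in both lines, ACMSD moves in opposite directions in the 2 lines, and BHMT2 separates the lines, with means of 110 and 146 CPM in VHL+ cells.

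With JQ1 against DMSO in VHL- cells, 6 of the 6 tested enzymes were called, 2 of them higher (ACMSD and GATM) and 4 lower (HGD, FAH, KYNU and BHMT2), where 32.1% of all tested genes were called, 14.6% higher and 17.5% lower. In VHL+ cells the same contrast called 5 of 6, GATM higher and HGD, FAH, ACMSD and BHMT2 lower, where 31.8% of all genes were called, 15.3% higher and 16.5% lower. VHL- against VHL+ cells called 4 of 6 under DMSO, KYNU and GATM higher and ACMSD and BHMT2 lower, where 30.7% of all genes were called, 14.8% higher and 15.9% lower. Under JQ1 they called 3 of 6, ACMSD and GATM higher and BHMT2 lower, where 40.9% of all genes were called, 19.7% higher and 21.2% lower. The JQ1 effects of the 2 lines differed for 2 of 6, ACMSD in the positive and BHMT2 in the negative direction, where 1.21% of all genes were called, 0.497% positive and 0.71% negative. That background was unstable: 250 genes were called with all libraries, 1336 with no filter on low counts, 1283 with DESeq2, 3510 without VHL- JQ1 replicate 1 and 43 without VHL- JQ1 replicate 3. The libraries of the compared groups did not overlap for 6 of 6 with JQ1 in VHL- cells, where this held for 43.1% of all genes, and for 5 of 6 in VHL+ cells, where it held for 48.2%. Between VHL- and VHL+ cells they did not overlap for 4 of 6 under DMSO, beside 42.7% of all genes, and for 4 of 6 under JQ1, beside 52.9%. These counts include KYNU, which entered through 1 group. The enzymes were picked with results of these data known, so their shares say nothing about the pathways they belong to. Contrasts within a line share no libraries with each other, but each shares libraries with the VHL contrasts.

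**Figure D2:**
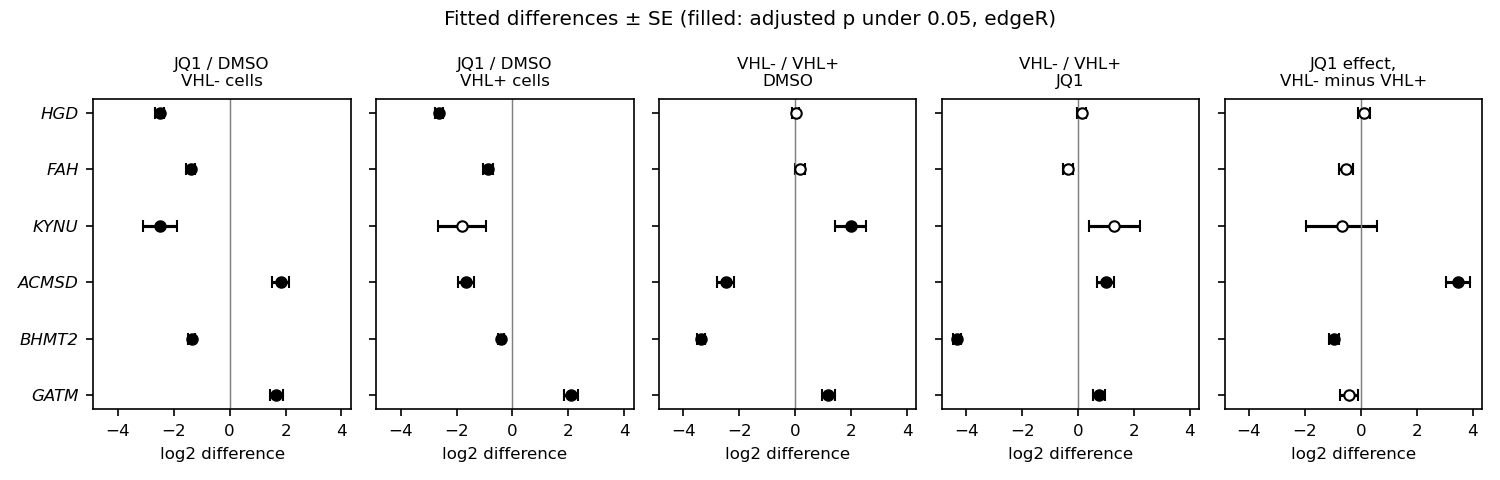
Log2 differences ± SE (edgeR) of the 6 tested enzymes for JQ1 over DMSO in VHL- and in VHL+ cells, VHL- over VHL+ under DMSO and under JQ1, and the JQ1 effect in VHL- minus that in VHL+ cells; filled points have an adjusted p under 0.05. HGD lies at -2.51 and -2.62 for JQ1 and near 0 between the lines, while ACMSD lies at 1.82 and -1.66 for JQ1.

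HGD, homogentisate 1,2-dioxygenase (ENSG00000113924, GRCh38 chromosome 3, 120628173 to 120682571, minus strand), fell with JQ1 in both lines, to 4.37 ± 0.745 CPM in VHL- cells and 4.02 ± 0.104 CPM in VHL+ cells. In bulk RNA, fewer expressing cells and less RNA per cell cannot be told apart. It had 4.75, 3.52 and 4.86 CPM in VHL- cells with JQ1, against 27.4, 22.6 and 25.4 CPM in VHL- cells with DMSO. In VHL+ cells it had 4.08, 4.09 and 3.90 CPM with JQ1, against 25.4, 24.2 and 25.0 CPM with DMSO. The JQ1 and DMSO libraries did not overlap in either line, and VHL- and VHL+ libraries overlapped under both treatments. The fold change was 5.68-fold lower in VHL- cells (log2 -2.51, SE 0.147, adjusted p = 1.95e-08) and 6.16-fold lower in VHL+ cells (log2 -2.62, SE 0.149, adjusted p = 9.04e-09). Among 20714 genes this was the 270th lowest log2 fold change in VHL- cells and the 279th lowest in VHL+ cells. Between the lines the log2 difference was 0.02 (SE 0.133, adjusted p = 0.945) under DMSO and 0.13 (SE 0.154, adjusted p = 0.520) under JQ1. The difference between both JQ1 effects, 0.12 (SE 0.204, adjusted p = 0.759), did not pass the test.

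FAH, fumarylacetoacetate hydrolase (ENSG00000103876, chromosome 15, 80152490 to 80186946, plus strand), also fell with JQ1 in both lines, less steeply than HGD in fold. Its levels were 18.9, 15.1 and 16.8 CPM in VHL- cells with JQ1, against 50.9, 41.3 and 42.1 CPM in VHL- cells with DMSO. In VHL+ cells they were 22.8, 19.9 and 22.3 CPM with JQ1, against 34.0, 52.7 and 32.6 CPM with DMSO. Replicate 2 of VHL+ cells with DMSO stood above the other 2 of its group, and the JQ1 and DMSO libraries did not overlap in either line. The log2 fold change was -1.40 (SE 0.175, adjusted p = 2.07e-05) in VHL- cells and -0.88 (SE 0.172, adjusted p = 0.00114) in VHL+ cells, and the difference of -0.52 (SE 0.243) between them was not called (adjusted p = 0.217). VHL- against VHL+ cells gave 0.17 (adjusted p = 0.485) under DMSO and -0.35 (adjusted p = 0.119) under JQ1. Without VHL+ DMSO replicate 2 these contrasts were called, at 0.44 (adjusted p = 0.0331) under DMSO and -0.36 (adjusted p = 0.0389) under JQ1; over all 21 alternatives the adjusted p ran from 0.0331 to 0.894 under DMSO and from 0.0350 to 0.321 under JQ1.

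TAT and HPD, which act ahead of HGD in the pathway, were barely present: both were below the filter, with 19 and 23 counts over all 12 libraries. GSTZ1, maleylacetoacetate isomerase, which acts between HGD and FAH, rose with JQ1 where both its neighbours in the pathway fell. Its level was 9.21 ± 0.872 CPM with JQ1 and 5.24 ± 0.325 CPM with DMSO in VHL- cells (log2 0.81, SE 0.176, adjusted p = 0.00225). In VHL+ cells it was 8.53 ± 0.559 CPM with JQ1 and 4.10 ± 0.957 CPM with DMSO (log2 1.05, SE 0.179, adjusted p = 0.000359). Of the 7 genes listed for phenylalanine and tyrosine catabolism beside HGD and FAH, 4 were tested. Of these, 1 rose and 1 fell with JQ1 in VHL- cells, with a median log2 fold change of -0.08 where that of all genes was 0.03. In VHL+ cells 1 rose and 0 fell, with a median of -0.01 where that of all genes was -0.03. Among all tested genes 14.6% rose and 17.5% fell with JQ1 in VHL- cells, and 15.3% rose and 16.5% fell in VHL+ cells.

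KYNU, kynureninase (ENSG00000115919, chromosome 2, 142877498 to 143055832, plus strand), was a low-count gene in every group. Its counts were 7, 1 and 3 in VHL- cells with JQ1, 18, 31 and 27 in VHL- cells with DMSO, 1, 1 and 2 in VHL+ cells with JQ1, and 11, 6 and 1 in VHL+ cells with DMSO. VHL- cells with DMSO stood above the libraries of the other groups, and the other 3 groups overlapped each other. The log2 fold change for JQ1 was -2.49 (SE 0.600, adjusted p = 0.00487) in VHL- cells and -1.80 (SE 0.854, adjusted p = 0.122) in VHL+ cells. VHL- against VHL+ cells gave 1.99 (SE 0.551, adjusted p = 0.0114) under DMSO and 1.3 (SE 0.922, adjusted p = 0.276) under JQ1. Single libraries decided some of these values. Without VHL+ DMSO replicate 3 the VHL difference under DMSO was 1.42 (adjusted p = 0.0521) and the JQ1 effect in VHL+ cells -2.36 (adjusted p = 0.0241). Without VHL+ DMSO replicate 1 the VHL difference under DMSO was 2.77 (adjusted p = 0.00463), and without VHL- JQ1 replicate 1 the JQ1 effect in VHL- cells was -3.16 (adjusted p = 0.00475). Over all alternatives with a value the adjusted p ran from 9.08e-05 to 0.0313 for JQ1 in VHL- cells, from 0.0241 to 0.462 for JQ1 in VHL+ cells and from 0.00111 to 0.0521 for VHL under DMSO.

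ACMSD, aminocarboxymuconate semialdehyde decarboxylase (ENSG00000153086, chromosome 2, 134838547 to 134902034, plus strand), moved in opposite directions with JQ1 in the 2 lines. It had 1.57, 2.50 and 2.45 CPM in VHL- cells with JQ1, against 0.501, 0.621 and 0.688 CPM in VHL- cells with DMSO. In VHL+ cells it had 1.49, 0.932 and 0.746 CPM with JQ1, against 4.24, 2.83 and 3.19 CPM with DMSO. All JQ1 libraries were above all DMSO libraries in VHL- cells, and all were below them in VHL+ cells. With JQ1 it was 3.54-fold higher in VHL- cells (log2 1.82, SE 0.316, adjusted p = 0.000398) and 3.16-fold lower in VHL+ cells (log2 -1.66, SE 0.294, adjusted p = 0.000499). The difference between these effects was 3.48 (SE 0.432, adjusted p = 0.000934), the 64th highest of 20714 genes. JQ1 was called in opposite directions in the 2 lines for 45 genes, or 0.217%, and for 36 of them the difference was also called, or 0.174%. ACMSD was lower in VHL- than in VHL+ cells under DMSO (log2 -2.49, SE 0.308, adjusted p = 1.12e-05) and higher under JQ1 (log2 0.99, SE 0.303, adjusted p = 0.0158).

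The levels of ACMSD rest on 13 to 116 counts per library. The higher level in VHL- cells under JQ1 was not called without VHL- JQ1 replicate 3 (adjusted p = 0.0665), VHL+ JQ1 replicate 2 (adjusted p = 0.0648) or VHL+ JQ1 replicate 3 (adjusted p = 0.0735), and over 21 alternatives the adjusted p ran from 0.00613 to 0.0735. The difference between the JQ1 effects was called under each of its 20 alternatives, with an adjusted p of at most 0.00597. Of its exon bases 94, or 3.38%, overlap CCNT2-AS1 on the opposite strand, and the strand setting of the counting is not given. CCNT2-AS1 was higher with JQ1 in both lines, at 8.57 ± 0.864 CPM with JQ1 and 3.59 ± 0.414 CPM with DMSO in VHL- cells, and 9.18 ± 0.839 CPM with JQ1 and 4.04 ± 0.621 CPM with DMSO in VHL+ cells. The part of its reads in ACMSD was not tested.

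Around these 2 enzymes the levels of kynurenine pathway genes were uneven. HAAO, which makes the substrate of ACMSD, was a low-count gene like KYNU, with 112 counts over the 12 libraries and group means of 0.208 to 0.621 CPM. Only its mean in VHL+ cells with DMSO was above the filter level of 0.370 CPM, so HAAO entered the tests through that group. Its differences from that group carry no weight of their own, and the list counts below include it. The enzymes that open the tryptophan ring, TDO2, IDO1 and IDO2, were below the filter with 14, 10 and 9 counts in all, as was ALDH8A1 with 34. KMO, kynurenine 3-monooxygenase, fell with JQ1 in both lines, at 0.95 ± 0.174 CPM with JQ1 and 5.92 ± 0.139 CPM with DMSO in VHL- cells (log2 -2.66, adjusted p = 1.76e-06). In VHL+ cells KMO was at 1.18 ± 0.294 CPM with JQ1 and 3.51 ± 0.861 CPM with DMSO (log2 -1.56, adjusted p = 0.000225). AADAT, an aminotransferase of kynurenine, fell as well (log2 -1.42 in VHL- cells, adjusted p = 0.000112, and -1.46 in VHL+ cells, adjusted p = 0.000149). QPRT, which turns quinolinate toward NAD and so lies on the branch that ACMSD avoids, was abundant. It fell with JQ1 in VHL- cells, to 191 ± 49.8 CPM against 331 ± 53.7 CPM with DMSO (log2 -0.79, adjusted p = 0.00445), and was at 513 ± 19.5 CPM with JQ1 and 488 ± 90.1 CPM with DMSO in VHL+ cells. AFMID, kynurenine formamidase, rose with JQ1 in both lines (log2 0.63 in VHL- cells, adjusted p = 0.0157, and 1.38 in VHL+ cells, adjusted p = 5.78e-05). Of the 13 listed pathway genes beside KYNU and ACMSD, 9 were tested; with JQ1 in VHL- cells 1 rose and 3 fell, with a median of 0.15 beside 0.03 for all genes, and in VHL+ cells 4 rose and 3 fell, with a median of 0.17 beside -0.03. Between VHL- and VHL+ cells, 4 rose and 2 fell under DMSO, and 1 rose and 2 fell under JQ1. For all tested genes the shares with JQ1 were 14.6% higher and 17.5% lower in VHL- cells, and 15.3% higher and 16.5% lower in VHL+ cells. Between the lines they were 14.8% higher and 15.9% lower in VHL- cells under DMSO, and 19.7% higher and 21.2% lower under JQ1.

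**Figure D3:**
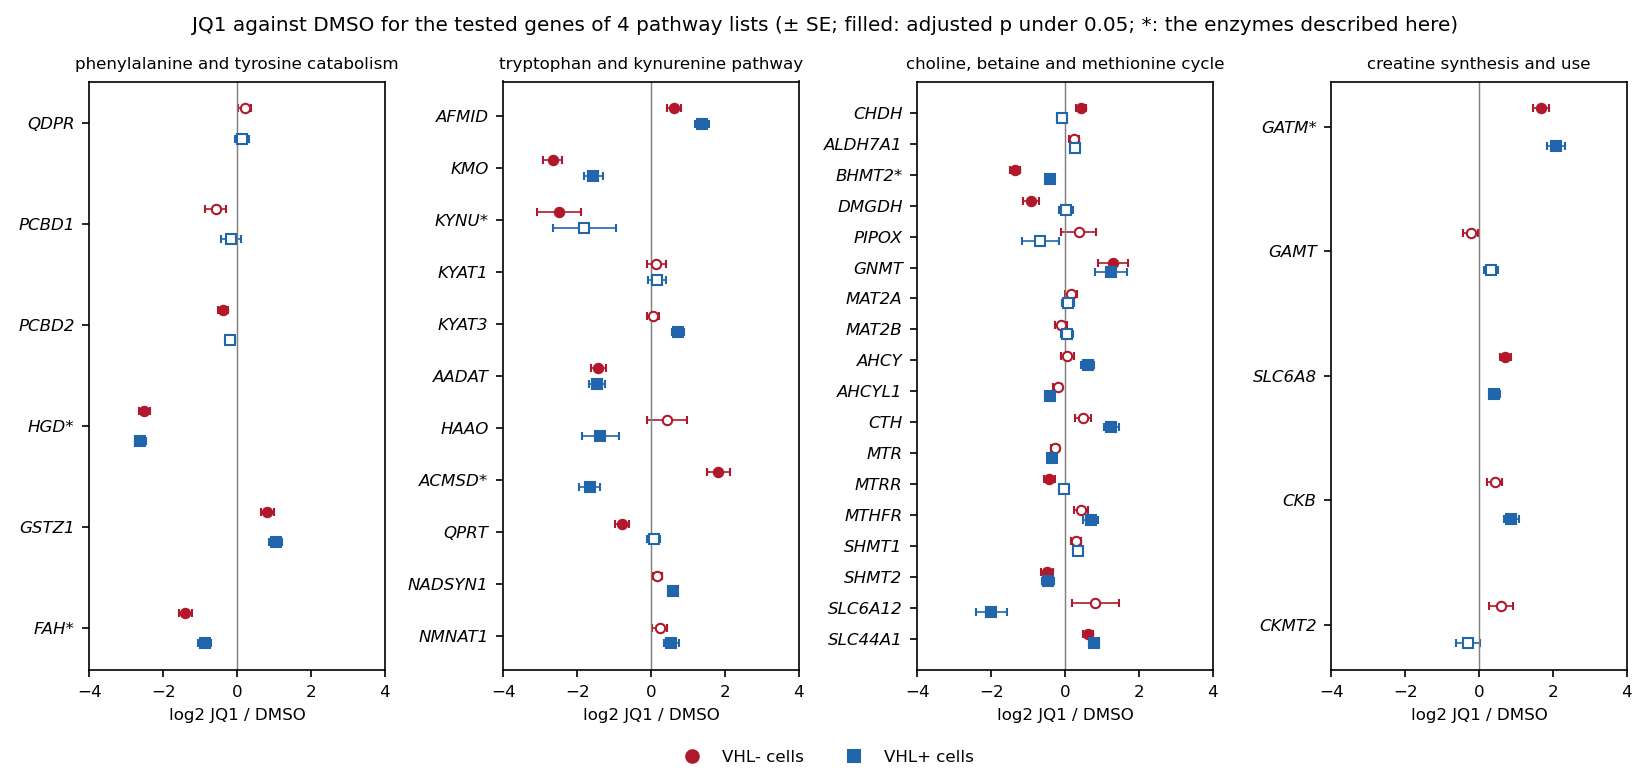
Log2 fold change ± SE (edgeR) of JQ1 over DMSO for the tested genes of 4 lists, tyrosine, tryptophan, betaine and methionine, and creatine, in VHL- cells (circles) and VHL+ cells (squares); filled symbols have an adjusted p under 0.05 and asterisks mark the enzymes described here. HGD, FAH and KMO lie left of 0 in both lines, GSTZ1 and GATM right of it, and the 2 symbols of ACMSD lie on opposite sides.

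BHMT2 (ENSG00000132840, chromosome 5, 79069717 to 79089466, plus strand) showed the widest separation of the lines among the 7. It had 6.32, 4.83 and 5.24 CPM in VHL- cells with JQ1, 15.1, 13.7 and 13.4 CPM in VHL- cells with DMSO, 112, 113 and 103 CPM in VHL+ cells with JQ1, and 153, 141 and 143 CPM in VHL+ cells with DMSO. No 2 groups overlapped. BHMT2 was 10.3-fold lower in VHL- than in VHL+ cells under DMSO (log2 -3.37, SE 0.132, adjusted p = 1.43e-11) and 19.9-fold lower under JQ1 (log2 -4.32, SE 0.141, adjusted p = 3.2e-12), the 360th and the 179th lowest of 20714 genes. With JQ1 it fell in VHL- cells (log2 -1.35, SE 0.132, adjusted p = 2.03e-06). In VHL+ cells the JQ1 effect was -0.41 (SE 0.119, adjusted p = 0.0157), and the difference between the effects was -0.95 (SE 0.177, adjusted p = 0.0177).

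The last 2 calls on BHMT2 were near the threshold, while their sizes stayed close, at -0.43 to -0.35 for the fall in VHL+ cells and -1.09 to -0.88 for the difference with a library left out. The fall in VHL+ cells was not called without VHL+ JQ1 replicate 1 (adjusted p = 0.0611), replicate 2 (adjusted p = 0.0530) or replicate 3 (adjusted p = 0.109), nor with no filter on low counts (adjusted p = 0.0880). The difference between the effects was not called without VHL+ JQ1 replicate 1 (adjusted p = 0.0713), VHL+ JQ1 replicate 2 (adjusted p = 0.0668) or VHL- JQ1 replicate 3 (adjusted p = 0.0902). Over their alternatives the adjusted p ran from 0.00241 to 0.109 for the fall and from 1.37e-05 to 0.0902 for the difference.

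BHMT (ENSG00000145692, chromosome 5, 79111779 to 79132290, plus strand) lies next to BHMT2 in the same orientation and was near the depth limit. Its counts were 1, 0 and 1 in VHL- cells with JQ1, 0, 1 and 2 in VHL- cells with DMSO, 3, 5 and 3 in VHL+ cells with JQ1, and 10, 7 and 7 in VHL+ cells with DMSO. All VHL+ libraries were above all VHL- libraries of the same treatment. Scaled by library size, the ratio of VHL- to VHL+ cells was 0.123 under DMSO (3 against 24 counts; exact 95% interval 0.0237 to 0.405) and 0.176 under JQ1 (2 against 11 counts; 0.0190 to 0.808), where the intervals cover counting error only. For each 1000 counts of BHMT2 there were 4.99 counts of BHMT in VHL- cells with JQ1, 2.45 in VHL- cells with DMSO, 1.43 in VHL+ cells with JQ1 and 1.92 in VHL+ cells with DMSO.

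The 2 genes are close enough in sequence for reads to match both. Their coding sequences, the longest reading frames of 1 GENCODE transcript each, were 1092 bases in BHMT2 and 1221 bases in BHMT and were identical at 866 of 1092 aligned bases, or 79.3%. Of the 1043 stretches of 50 bases in the BHMT2 coding sequence, 117 occur unchanged in BHMT. The longest shared run, of 166 bases, is shown because a read from within it cannot be assigned to either gene:
Shared run of BHMT2 and BHMT: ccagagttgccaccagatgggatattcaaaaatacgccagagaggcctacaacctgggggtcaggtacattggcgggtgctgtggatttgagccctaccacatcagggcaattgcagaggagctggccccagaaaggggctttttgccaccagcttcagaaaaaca
How such reads were counted is not given, so the counts of BHMT are uncertain, and the part of BHMT2 reads in them was not tested. A further 239 exon bases of BHMT, or 6.79%, overlap DMGDH on the opposite strand.

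The stretches upstream of the annotated starts are printed for BHMT2, which was lower in VHL- cells, and for its neighbour BHMT. Counts of BHMT were lower there too, but BHMT was not tested and its counts are uncertain. VHL acts on hypoxia-inducible factors, whose core binding motif is ACGTG or GCGTG. The part of these factors in the levels of either gene was not tested. They come from RefSeq promoter windows on GRCh38.p14, 250 bases before to 50 bases after a start, which were found for 5 of the 7 enzymes; HGD and ACMSD had no entry. Capitals mark the core motif on either strand:
BHMT2, chr5:79069517-79069716, plus strand: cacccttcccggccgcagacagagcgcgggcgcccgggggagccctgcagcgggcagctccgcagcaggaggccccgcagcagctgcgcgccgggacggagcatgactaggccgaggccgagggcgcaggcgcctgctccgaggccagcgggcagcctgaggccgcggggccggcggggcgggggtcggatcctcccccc
BHMT, chr5:79111559-79111778, plus strand: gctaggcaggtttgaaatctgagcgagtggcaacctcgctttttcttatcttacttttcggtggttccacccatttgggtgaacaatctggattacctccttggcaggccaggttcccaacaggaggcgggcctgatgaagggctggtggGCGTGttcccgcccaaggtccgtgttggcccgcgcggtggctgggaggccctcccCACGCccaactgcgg
The BHMT stretch, of 220 bases, held 2 matches, 1 on each strand, and the BHMT2 stretch, of 200 bases, held 0. The full windows of 300 bases also held 2 and 0, where 48.4% of all 35116 windows held at least 1 match. The E-box CACGTG, which contains ACGTG, was in neither full window and in 7.26% of all windows. The full BHMT2 window had 38 CpG dinucleotides and 80.0% G and C, and the BHMT window had 21 CpG and 62.3% G and C, beside a median of 14 CpG over all windows. A match is a description of the letters and not a site in use.

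Neighbours of BHMT2 were also lower in VHL- cells. Of 5 other tested protein-coding genes within 300 kb, ARSB, DMGDH, JMY and HOMER1 were lower under both treatments, and LHFPL2 was not called under either, where 15.9% of all tested genes were lower under DMSO and 21.2% under JQ1. DMGDH, dimethylglycine dehydrogenase, which acts on the dimethylglycine that BHMT releases, was at 3.70 ± 0.413 CPM in VHL- cells and 22.5 ± 0.600 CPM in VHL+ cells under JQ1 (log2 -2.59, SE 0.211, adjusted p = 9.4e-08). Under DMSO it was at 7.07 ± 0.528 CPM in VHL- cells and 22 ± 7.18 CPM in VHL+ cells (log2 -1.64, SE 0.197, adjusted p = 8.15e-06). ARSB, JMY and HOMER1 differed by -0.70, -0.73 and -1.10 on the log2 scale under DMSO, and by -1.21, -1.32 and -0.84 under JQ1. The number of copies of this stretch of chromosome 5 in each line was not measured.

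**Figure D4:**
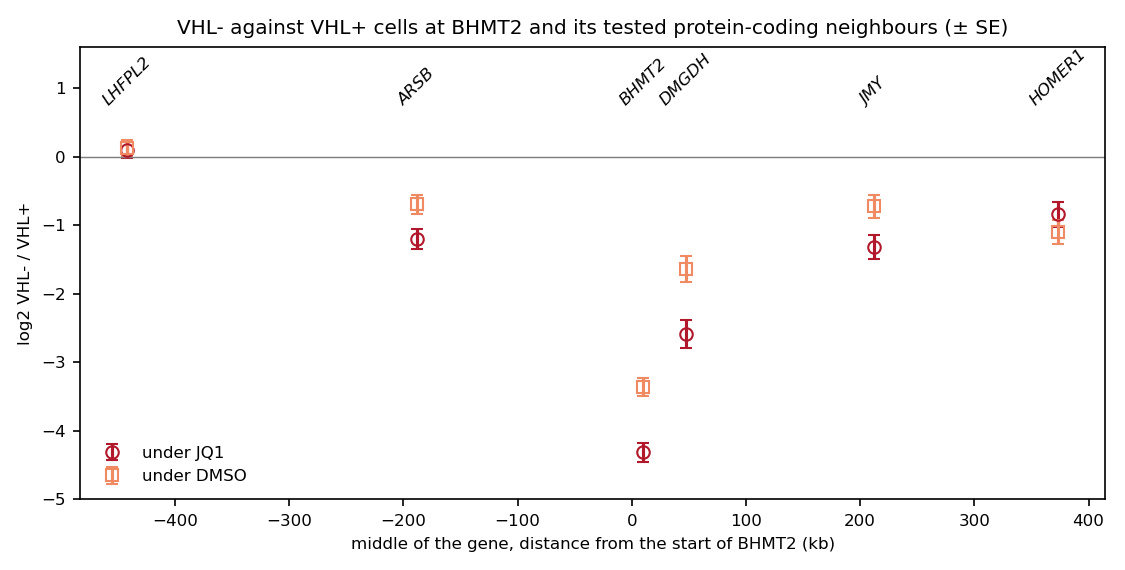
Log2 fold change ± SE (edgeR) of VHL- over VHL+ cells for BHMT2 and the tested protein-coding genes near it, plotted at the middle of each gene against its distance in kb from the start of BHMT2, under JQ1 (circles) and DMSO (squares). BHMT2 lies lowest, at -4.32 and -3.37, DMGDH next at -2.59 and -1.64, and LHFPL2 near 0.

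The other genes of betaine and methionine metabolism that were called between the lines were lower in VHL- cells. Of the 20 listed beside BHMT and BHMT2, 17 were tested. Between VHL- and VHL+ cells 0 rose and 8 fell under DMSO, with a median log2 fold change of -0.37 beside 0.00 for all genes, and 0 rose and 7 fell under JQ1, with a median of -0.34 beside 0.03. Of all tested genes 14.8% rose and 15.9% fell in VHL- cells under DMSO, and 19.7% rose and 21.2% fell under JQ1. CHDH, which makes betaine aldehyde from choline, was at 5.04 ± 0.241 CPM in VHL- cells and 12.1 ± 0.652 CPM in VHL+ cells under DMSO (log2 -1.26, adjusted p = 2.85e-06). SLC6A12, a betaine transporter, was at 0.113 ± 0.0341 CPM in VHL- cells and 1.95 ± 0.856 CPM in VHL+ cells under DMSO (log2 -4.04, adjusted p = 8.84e-06). Its means in VHL- cells were below the filter level of 0.370 CPM under both treatments. SLC6A12 thus entered the tests through VHL+ cells. This difference carries no weight of its own, and the 8 falls under DMSO include it. CTH, cystathionine gamma-lyase, was lower in VHL- cells under JQ1, at 3.31 ± 0.267 CPM against 9.60 ± 1.39 CPM in VHL+ cells (log2 -1.54, adjusted p = 3.47e-05). With JQ1, 3 rose and 3 fell in VHL- cells, and 5 rose and 4 fell in VHL+ cells. For all tested genes the shares with JQ1 were 14.6% higher and 17.5% lower in VHL- cells, and 15.3% higher and 16.5% lower in VHL+ cells. SARDH, MAT1A and CBS were below the filter with 12, 10 and 23 counts in all, and CBS has a near-identical copy in the assembly that can take its reads.

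GATM (ENSG00000171766, chromosome 15, 45361124 to 45402327, minus strand) rose with JQ1 in both lines and was higher in VHL- cells under both treatments. It had 24.6, 16.1 and 20.1 CPM in VHL- cells with JQ1, 5.55, 6.21 and 7.35 CPM in VHL- cells with DMSO, 13.6, 9.80 and 12.5 CPM in VHL+ cells with JQ1, and 3.18, 1.73 and 3.43 CPM in VHL+ cells with DMSO. The 4 groups did not overlap. The rise was 3.19-fold in VHL- cells (log2 1.67, SE 0.221, adjusted p = 3.6e-05) and 4.26-fold in VHL+ cells (log2 2.09, SE 0.235, adjusted p = 1.01e-05), this last effect being the 100th highest of 20714 genes. The difference between them, -0.42 (SE 0.317), was not called (adjusted p = 0.444). VHL- cells were higher by 1.18 (SE 0.235, adjusted p = 0.00109) under DMSO and by 0.77 (SE 0.215, adjusted p = 0.00972) under JQ1, and without VHL+ JQ1 replicate 2 the second was 0.63 and not called (adjusted p = 0.0580; 0.00101 to 0.0580 over 21 alternatives). An antisense gene, AC025580.3, shares 485 exon bases with GATM, 7.30% of the total, and stood at or below 0.0249 CPM in every group mean.

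GAMT, the enzyme after GATM in creatine synthesis, was not called for JQ1 in either line. It was at 6.01 ± 1.58 CPM in VHL- cells and 11.1 ± 0.254 CPM in VHL+ cells under JQ1 (log2 -0.87, adjusted p = 0.00202), lower in VHL- cells where GATM was higher. SLC6A8, the creatine transporter, rose with JQ1 in VHL- cells, at 143 ± 28.2 CPM against 87.4 ± 8.91 CPM with DMSO (log2 0.71, adjusted p = 0.00206). It was also called higher in VHL+ cells (log2 0.42, adjusted p = 0.0455), a call lost under some alternatives (adjusted p up to 0.249). CKB, a creatine kinase, rose with JQ1 in VHL+ cells, at 5.10 ± 0.727 CPM against 2.77 ± 0.385 CPM with DMSO (log2 0.88, adjusted p = 0.00356). Of the 7 genes listed beside GATM 4 were tested, and CKM, CKMT1A and CKMT1B were below the filter. With JQ1, 1 of the 4 rose and 0 fell in VHL- cells, and 2 rose and 0 fell in VHL+ cells. Among all tested genes 14.6% rose and 17.5% fell with JQ1 in VHL- cells, and 15.3% rose and 16.5% fell in VHL+ cells. CKMT1A and CKMT1B have near-identical coding sequences, so their 1 and 14 counts are uncertain.

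The group order of the levels differed between enzymes. HGD and FAH were highest under DMSO, where VHL- and VHL+ libraries overlapped. GATM was highest in VHL- cells with JQ1, next in VHL+ cells with JQ1, then in VHL- cells with DMSO and lowest in VHL+ cells with DMSO, with no overlap between neighbours in that order. ACMSD had its highest level in VHL+ cells with DMSO and its lowest in VHL- cells with DMSO, with the JQ1 groups between, again without overlap of neighbours.

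Genes with the most similar pattern, by Pearson correlation of log2 CPM over the 12 libraries among 7802 candidates at the most, were named for each tested enzyme as a description. The 12 points fall in the 4 groups, so a high value mostly means the same order of groups. HGD was closest to SERPINH1 (0.986), DMTN (0.985) and TFPI (0.984), and FAH to AK5 (0.981), GLTP (0.977) and CYP1B1 (0.977). BHMT2 was closest to TRPS1 (0.997), SLCO4C1 (0.995) and C3 (0.994), all of which had lower means in VHL- than in VHL+ cells. For GATM these were ASMTL (0.994), WWC2 (0.990) and TP53I3 (0.984). KYNU reached 0.936 with ZNF146, 0.908 with UBL4A and 0.907 with TRMT6. None of the candidates matched ACMSD as closely, the nearest being ECHDC2 (0.811), ADGRL1 (0.801) and HNRNPU (0.800). Candidates had a mean log2 CPM of 4 or more, while ACMSD had group means of 0.603 to 3.42 CPM. Genes as low as ACMSD were thus not searched.

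Tubular markers and lineage factors gave the setting of these changes. Of the 10 tested proximal tubule markers, 0 rose and 4 fell with JQ1 in each line, with medians of -0.38 in VHL- cells and -0.98 in VHL+ cells beside 0.03 and -0.03 for all genes. Among all tested genes 14.6% rose and 17.5% fell with JQ1 in VHL- cells, and 15.3% rose and 16.5% fell in VHL+ cells. SLC34A1, the phosphate transporter of the proximal tubule, was at 0.122 ± 0.106 CPM with JQ1 and 1.05 ± 0.105 CPM with DMSO in VHL- cells (log2 -2.90, adjusted p = 0.000155), and at 0.344 ± 0.0199 CPM with JQ1 and 2.33 ± 0.400 CPM with DMSO in VHL+ cells (log2 -2.74, adjusted p = 5.04e-05). Its JQ1 means were below the filter level of 0.370 CPM, so SLC34A1 entered the tests through the DMSO groups. Its falls carry no weight of their own, and the counts above include it. MIOX, the inositol oxygenase of the tubule, fell in both lines too (log2 -2.79 in VHL- cells, adjusted p = 2.63e-05, and -1.68 in VHL+ cells, adjusted p = 0.000296). Between VHL- and VHL+ cells 2 markers rose and 5 fell under DMSO, where 14.8% of all tested genes rose and 15.9% fell. SLC3A1, a subunit of the cystine transporter, was at 0.291 ± 0.103 CPM in VHL- cells and 3.00 ± 0.207 CPM in VHL+ cells (log2 -3.32, adjusted p = 2.43e-06). That VHL- mean was below the filter level of 0.370 CPM, so SLC3A1 did not enter the tests through this group. Its difference carries no weight of its own, and the 5 falls include it. MIOX was lower in VHL- cells as well (log2 -1.34, adjusted p = 0.0012). MME, a membrane peptidase, went the other way, at 99.2 ± 1.90 CPM in VHL- cells and 4.51 ± 1.10 CPM in VHL+ cells (log2 4.46, adjusted p = 1.71e-10). HNF4G, a nuclear receptor of the HNF4 family, fell with JQ1 in both lines (log2 -2.27 in VHL- cells, adjusted p = 2.81e-07, and -2.01 in VHL+ cells, adjusted p = 1.5e-06). PAX8 went the other way and rose in both (log2 0.69 in VHL- cells, adjusted p = 0.0155, and 1.19 in VHL+ cells, adjusted p = 0.000383). The call of PAX8 in VHL- cells was lost under some alternatives (adjusted p up to 0.0941). PPARGC1A, a coactivator of oxidative metabolism, was at 0.826 ± 0.334 CPM in VHL- cells and 41.2 ± 6.00 CPM in VHL+ cells under DMSO (log2 -5.65, adjusted p = 5.11e-11). Of the 12 factors listed, 2 rose and 3 fell with JQ1 in VHL- cells, and 5 rose and 4 fell in VHL+ cells. The shares of all genes given above for JQ1 apply here too. The part of these factors in the levels of the 7 enzymes was not tested.

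Enzymes of other amino acids moved in both directions. Of 29 tested, 9 rose and 5 fell with JQ1 in VHL- cells (median 0.24), and 14 rose and 2 fell in VHL+ cells (median 0.50). Over all genes 14.6% rose and 17.5% fell in VHL- cells (median 0.03), and 15.3% rose and 16.5% fell in VHL+ cells (median -0.03). HOGA1, a hydroxyproline enzyme, fell in both lines, at 12.2 ± 0.0716 CPM with JQ1 and 51.6 ± 4.91 CPM with DMSO in VHL- cells (log2 -2.08, adjusted p = 2.89e-06). In VHL+ cells HOGA1 was at 24.1 ± 0.102 CPM with JQ1 and 95.9 ± 34.3 CPM with DMSO (log2 -1.99, adjusted p = 4.58e-06). AASS and GCDH of lysine breakdown rose with JQ1 in VHL+ cells (both log2 1.12, adjusted p = 8.48e-05 and 7.72e-06). Their means were higher with JQ1 in VHL- cells too. There AASS was at 28.1 ± 1.53 CPM with JQ1 and 14.2 ± 1.62 CPM with DMSO, and GCDH at 36.3 ± 4.17 and 21.6 ± 0.299 CPM. Between VHL- and VHL+ cells 4 rose and 5 fell under DMSO (median -0.13), and 1 rose and 15 fell under JQ1 (median -0.41). Over all genes 14.8% rose and 15.9% fell under DMSO (median 0.00), and 19.7% rose and 21.2% fell under JQ1 (median 0.03). GLDC of glycine cleavage was lower in VHL- cells under both (log2 -1.84 and -2.18, adjusted p = 1.2e-07 and 1.73e-08). BCAT1, the cytosolic branched-chain aminotransferase, was 74.9-fold higher in VHL- cells under DMSO (log2 6.23, adjusted p = 1.88e-11) and 17.0-fold higher under JQ1 (log2 4.09, adjusted p = 2.86e-09). Its VHL+ levels, 0.199 ± 0.0193 CPM with DMSO and 0.306 ± 0.0332 CPM with JQ1, were below the filter level of 0.370 CPM. BCAT1 thus entered the tests through VHL- cells. These differences carry no weight of their own, and the counts of rises between the lines include it.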

How the data were processed

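Counts per Ensembl gene, as deposited by the authors, were used for 12 libraries; GRCh38 is the build in the submitters' processing notes, which list STAR (2.7.8), featureCounts, DESeq2 (1.30.1) and Subread (2.0.3) as tools. For JQ1 against DMSO the authors' deposited tables give log2 fold changes with SE, a test statistic (a score), p-values and adjusted p-values, and a mean of normalized counts (another, other unit). Their sign and side of the threshold matched the fit used here for 12 of 12 values.

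Counts were fitted with edgeR 4.0.16 (R 4.3.3, limma 3.58.1) as 1 mean per group, TMM scaling and edgeR's filter by group (minimum count 10), with Benjamini-Hochberg adjustment over 20714 genes; the code was tested on simulated data. Positions come from GENCODE 29. Coding sequences were aligned with Biopython 1.88, and intervals are exact binomial (scipy 1.17.1). The enzymes, lists and tests were chosen with earlier results of these data known. Named genes are the 7 enzymes, VHL, MYC and CA9, up to 3 tested genes with the smallest p per list and comparison, list genes below the filter, and the 3 most correlated genes whose mean log2 CPM (prior count 2) is 4 or more. Not every gene so named is printed. Whether replicate numbers pair libraries is not given. Residual correlations of libraries with the same number ran from -0.26 to 0.33 (4 of 18 over 0.1). Those of libraries with different numbers ran from -0.38 to 0.20, so these values do not decide it. Alternatives were other size factors, filters, DESeq2 1.42.0, limma-voom, leaving out each library, the replicate number as a block, dropping mitochondrial and structural RNA, and fits of the compared groups alone. No library was a copy of another within sampling noise.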

Additional observations from a re-analysis of the deposited data

Results flagged for a closer look

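The JQ1 effect differed between the lines, by the test of the difference itself in edgeR's fit, for ACMSD, by 3.48 (SE 0.432, adjusted p = 0.000934; 1.82 in VHL- cells and -1.66 in VHL+ cells). BHMT2 differed by -0.95 (SE 0.177, adjusted p = 0.0177; -1.35 in VHL- cells and -0.41 in VHL+ cells), with a call that is lost without any of 3 libraries. BCAT1 differed by -2.14 (SE 0.416, adjusted p = 0.0212; -1.54 in VHL- cells and 0.60 in VHL+ cells) and is low in VHL+ cells, at 0.306 ± 0.0332 CPM with JQ1 and 0.199 ± 0.0193 CPM with DMSO; this call too is lost under some alternatives (-2.31 to -2.04, adjusted p 0.00386 to 0.0838). CA9 differed by -3.73 (SE 0.701, adjusted p = 0.0179), with -1.57 in VHL- cells and 2.16 in VHL+ cells. In VHL+ cells CA9 was at 0.531 ± 0.484 CPM with JQ1 and 0.126 ± 0.0216 CPM with DMSO, and these libraries overlapped. It too is not called under some alternatives (-4.19 to -2.72, adjusted p 2.82e-13 to 0.165). BCAT1 and CA9 entered the tests through VHL- cells, where they are high, so their differences carry no weight of their own. VHL itself differed by -1.29 (SE 0.173, adjusted p = 0.00161; 0.31 in VHL- cells and 1.59 in VHL+ cells), so its RNA rose with JQ1 in the cells to which it was returned.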

How the results depend on the processing

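The counts of called enzymes were 6, 5, 4, 3 and 2 for JQ1 in VHL- cells, JQ1 in VHL+ cells, VHL under DMSO, VHL under JQ1 and the difference between the JQ1 effects, and were the same without VHL- JQ1 replicate 2, the shallowest library. Leaving out libraries gave 1 to 4 enzymes for VHL under JQ1 and 1 to 2 for the difference. For the difference, the count over all genes was 250; it was 1336 with no filter on low counts, 1283 with DESeq2 and 43 (VHL- JQ1 replicate 3) to 3510 (VHL- JQ1 replicate 1) with a library left out; the cause was not tested. With the replicate block the enzymes called were again 6, 5, 4, 3 and 2, and the difference was called for 272 genes. HGD between the lines under DMSO changed sign around 0, at -0.000701 with a filter of 1 CPM in 3 libraries, -0.00213 with only the groups compared and -0.0444 without VHL- DMSO replicate 1 (up to 0.0815 with another library left out), and passed the test in none of these. BHMT could be fitted without the filter (VHL under DMSO -2.85, adjusted p = 0.0196) and with DESeq2 (-3.03, adjusted p = 0.0424). FAH under JQ1 was also called between the lines with only the groups compared (-0.34, adjusted p = 0.0350). Of 617 recomputed values of the 6 tested enzymes, 597 kept direction and side of the threshold, 12 lost the call, 4 gained it, 3 changed sign and 1 had no adjusted p (KYNU, DESeq2). Of 1885 values of the list genes named, 87 lost the call and the others kept it; CA9 with JQ1 in VHL+ cells and CA9 and BCAT1 for the difference were among those, as were KMO and AADAT between the lines under DMSO. KYNU had no value with a filter of 1 CPM in 3 libraries, nor, on the compared groups alone, for JQ1 in VHL+ cells or VHL under JQ1. Called genes of the 4 pathway lists numbered 12 without VHL+ DMSO replicate 3 (19 with it) for VHL under DMSO, and 10 without VHL+ JQ1 replicate 2 (16 with it) for VHL under JQ1. Depth limits KYNU and BHMT, at 109 and 40 counts over all libraries.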
